A study of Mus musculus with 2 samples.

Results

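The 42 genes described here, of 32285 genes measured, are transcribed as cells copy their DNA and divide. They were fixed as a list of gene symbols and split by the phase in which they act, with no measured value used. The S-phase members number 17. They are Pcna, the sliding clamp of DNA polymerases, and Mcm2, Mcm3, Mcm4, Mcm5, Mcm6 and Mcm7, the subunits of the replicative helicase. Gins2 is a helicase cofactor and Cdc6 loads the helicase. Tyms, Rrm1, Rrm2 and Tk1 supply deoxynucleotides, Pclaf binds the Pcna clamp, Uhrf1 maintains DNA methylation, and Ccne1 and Ccne2 are the cyclins E. The mitosis members number 24. Cdk1 is the mitotic kinase, with its cyclins Ccnb1, Ccnb2 and Ccna2 and its subunit Cks2. Plk1, Aurka and Aurkb are mitotic kinases, Tpx2 activates Aurka, and Birc5 and Cdca8 act with Aurkb in the chromosomal passenger complex. Bub1 and Bub1b belong to the spindle checkpoint, Cdc20 and Ube2c to the ubiquitin system that ends mitosis, and Cenpe and Cenpf to the kinetochore. Kif11, Kif23, Prc1, Nusap1 and Hmmr build the spindle or the midbody, Top2a untangles DNA, and Mki67 coats mitotic chromosomes. The last member, Stmn1, destabilises microtubules in dividing and non-dividing cells and was placed in neither group.

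In a resting cell both groups are held down by retinoblastoma-family proteins. When cyclin D and cyclin E kinases release E2F factors, the S-phase genes are transcribed, and the mitosis genes follow later through the MuvB complex, which binds the cell cycle homology region (CHR) together with factors on CCAAT boxes. In the pancreas nearly all epithelial cells are at rest, whereas the tumour cells, blood cell precursors and activated lymphocytes divide.

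Single-cell RNA had been sequenced from pancreatic tumours of KPPC mice, a genetic mouse model of pancreatic ductal cancer. Neither the alleles of these mice nor the promoter driving them are given in the labels. Mice aged 6 weeks had been dosed for 14 days, either with vehicle or with 50 mg/kg takinib, and each arm gave 1 library. Takinib inhibits TAK1, a kinase of inflammatory signalling, and the comparison asked how tumour cells differ under it. The number of mice in each library is not stated. With 1 library per group no test was possible, so the differences below compare 2 libraries and have no replicate check. Intervals in square brackets are 95% intervals for counting error alone, exact Poisson for sums, exact Clopper-Pearson for shares and exact conditional binomial for log2 ratios of takinib over vehicle.

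Promoters show how the S-phase and mitosis groups differ in sequence. RefSeq promoters of build GRCm38.p6, running from 250 bases before the transcript start to 50 after it, were matched for 35 of the 42 members (16 promoters of 14 S-phase genes and 22 promoters of 21 mitosis genes). They were searched on both strands for E2F words, namely TTCCCGC and its variants with the letters TTCGCGC, with the letters TTGCCGC and with the letters TTGGCGC. The CHR words searched were TTTGAA and its variant with the letters TTCGAA, and the CCAAT box was searched by its letters. E2F words can overlap on opposite strands and were then counted as 2 matches, and TTCGAA, which reads the same on both strands, was counted once. An E2F word lay in 11 of 16 S-phase promoters (68.8%) and in 4 of 22 mitosis promoters (18.2%), against 9.57% of all 32851 promoters. A CHR word lay in 2 of 16 S-phase promoters (12.5%) and 17 of 22 mitosis promoters (77.3%), against 19.2% of all. A CHR word and a CCAAT box together lay in 77.3% of the mitosis promoters and 7.52% of all. Aurkb, Ccna2, Ccne2, Gins2, Mcm4, Stmn1 and Tpx2 had no promoter in the table. These shares describe letters in a window and not binding.

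The promoters below were chosen because each holds its group's words in clear form. Capitals mark the E2F words in the helicase genes Mcm6 and Mcm5, the CHR words in the mitosis genes Top2a, Ccnb2, Plk1 and Ube2c, and both kinds in Cdk1. Each is written 5′ to 3′ on the gene's own strand, from RefSeq on GRCm38.p6.
Mcm6, chr1:128359656-128359955, minus strand: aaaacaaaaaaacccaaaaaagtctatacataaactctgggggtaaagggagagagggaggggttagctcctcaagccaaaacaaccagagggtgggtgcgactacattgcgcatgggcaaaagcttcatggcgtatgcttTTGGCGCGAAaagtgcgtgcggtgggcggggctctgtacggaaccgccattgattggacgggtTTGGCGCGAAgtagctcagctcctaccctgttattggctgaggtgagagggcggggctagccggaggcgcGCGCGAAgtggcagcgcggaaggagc
Mcm5, chr8:75109259-75109558, plus strand: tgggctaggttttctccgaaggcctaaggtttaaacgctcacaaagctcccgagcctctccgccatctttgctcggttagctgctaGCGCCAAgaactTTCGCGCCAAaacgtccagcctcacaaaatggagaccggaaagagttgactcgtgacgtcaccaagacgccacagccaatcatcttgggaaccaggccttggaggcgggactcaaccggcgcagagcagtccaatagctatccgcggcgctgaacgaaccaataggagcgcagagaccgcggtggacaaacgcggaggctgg
Top2a, chr11:99024140-99024439, minus strand: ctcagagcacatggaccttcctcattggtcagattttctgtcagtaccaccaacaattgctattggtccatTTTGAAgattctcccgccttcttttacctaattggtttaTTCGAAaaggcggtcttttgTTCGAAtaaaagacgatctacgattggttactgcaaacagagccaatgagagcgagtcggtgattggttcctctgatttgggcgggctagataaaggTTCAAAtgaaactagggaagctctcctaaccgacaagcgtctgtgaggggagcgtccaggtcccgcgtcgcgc
Ccnb2, chr9:70421505-70421804, minus strand: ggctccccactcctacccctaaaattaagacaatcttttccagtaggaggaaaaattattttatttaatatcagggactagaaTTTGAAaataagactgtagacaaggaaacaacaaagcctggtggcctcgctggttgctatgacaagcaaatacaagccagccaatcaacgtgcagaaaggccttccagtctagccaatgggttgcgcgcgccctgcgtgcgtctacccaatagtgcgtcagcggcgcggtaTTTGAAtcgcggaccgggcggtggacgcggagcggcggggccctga
Plk1, chr7:122159185-122159484, plus strand: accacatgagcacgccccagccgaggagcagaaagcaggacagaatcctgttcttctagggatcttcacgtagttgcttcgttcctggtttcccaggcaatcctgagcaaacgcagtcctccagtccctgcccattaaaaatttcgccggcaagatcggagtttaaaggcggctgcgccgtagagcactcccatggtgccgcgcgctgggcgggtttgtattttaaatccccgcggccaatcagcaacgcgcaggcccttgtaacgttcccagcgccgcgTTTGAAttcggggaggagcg
Ube2c, chr2:164769679-164769978, plus strand: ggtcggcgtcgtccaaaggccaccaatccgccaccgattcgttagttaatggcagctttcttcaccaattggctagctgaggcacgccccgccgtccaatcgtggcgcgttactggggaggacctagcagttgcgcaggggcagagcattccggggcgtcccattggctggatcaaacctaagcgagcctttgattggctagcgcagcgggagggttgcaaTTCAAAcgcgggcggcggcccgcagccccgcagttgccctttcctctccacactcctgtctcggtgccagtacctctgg
Cdk1, chr10:69352863-69353162, minus strand: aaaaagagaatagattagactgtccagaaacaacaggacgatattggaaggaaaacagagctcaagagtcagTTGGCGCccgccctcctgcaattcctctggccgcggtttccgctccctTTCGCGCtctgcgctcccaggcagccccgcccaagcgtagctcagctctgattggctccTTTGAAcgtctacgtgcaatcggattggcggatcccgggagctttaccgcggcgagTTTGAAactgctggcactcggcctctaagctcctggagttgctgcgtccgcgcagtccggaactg
The Mcm6 window held 5 E2F matches and no CHR word, and the Mcm5 window held 3 E2F matches. Ccnb2, Plk1 and Ube2c had CHR words and no E2F word. Cdk1 had 2 of each. In Cks2, a mitosis member that differs from its group in the counts below, the window held 4 CCAAT boxes and neither an E2F nor a CHR word.

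**Figure D1:**
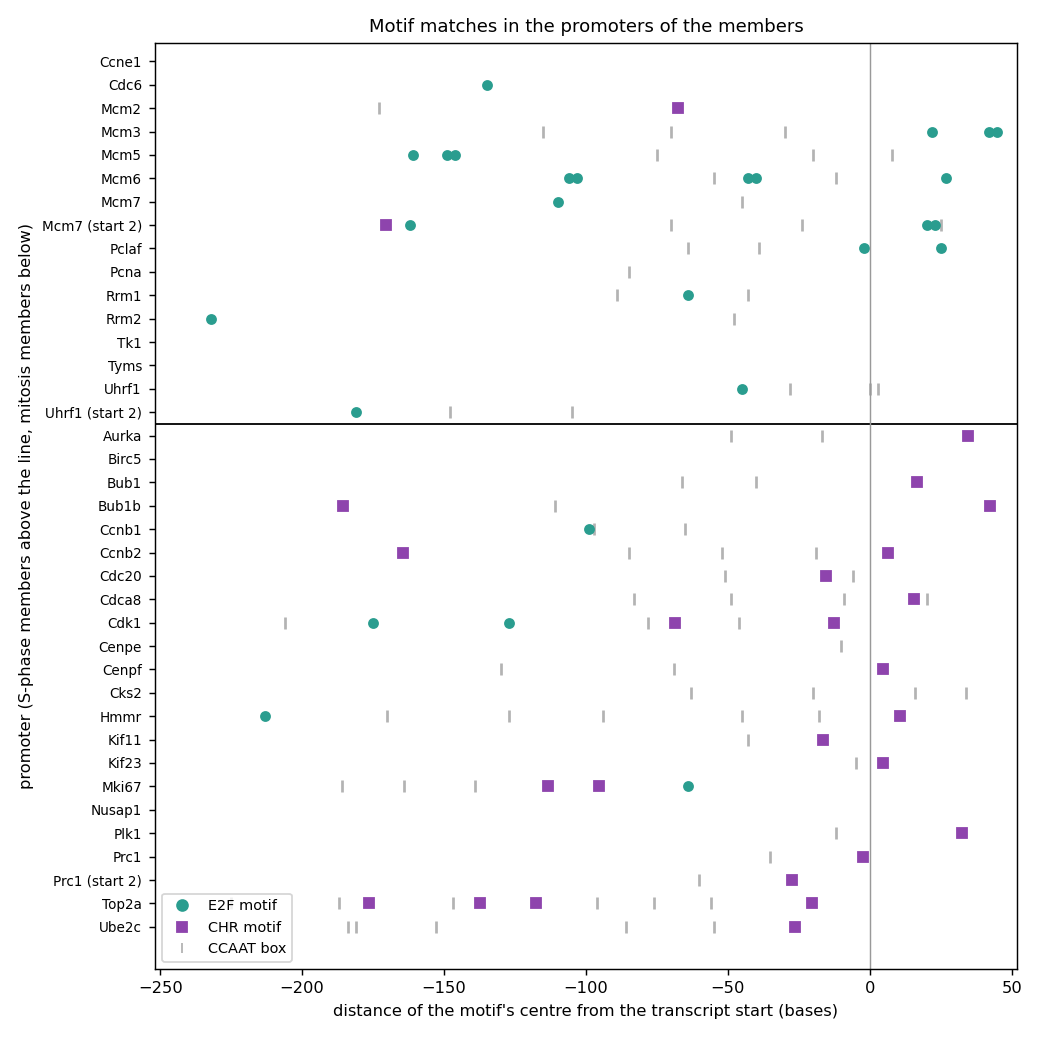
Positions of E2F words (circles), CHR words (squares) and CCAAT boxes (ticks) in the member promoters, as the distance in bases from the transcript start at 0. Circles gather in the S-phase promoters above the line, where 11 of 16 hold one, and squares in the mitosis promoters below it, where 17 of 22 hold one.

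The vehicle matrix held 704261 barcodes and 80850334 unique molecular identifiers (UMIs, each standing for 1 captured transcript), and the takinib matrix 34158 barcodes and 139292875 UMIs. After filters on depth, genes, mitochondrial share and doublets, 9558 vehicle and 25183 takinib cells were kept, with medians of 3556 and 2887 UMIs. The libraries also differed in mitochondrial share (medians 8.70% and 1.79%) and in the sex of the animals. In vehicle 1075 cells held Xist without Y-linked UMIs and 3087 cells the reverse, while takinib held 0 Y-linked UMIs. Another 5228 vehicle cells held neither and 168 both, and these were assigned to no sex. The libraries shared 400 barcode sequences, near the 376 that lists of this size share when drawn independently. UMIs of S100a8 and S100a9, abundant neutrophil transcripts, summed to 76.3 counts per 1000000 UMIs (CPM) in vehicle fibroblast-like cells and 8502 CPM in those of takinib, and were higher in takinib in every class compared. Drug, library, sex of the animals and the make-up of the tissue sample changed together and cannot be told apart. Cells fell into 24 clusters made without the members, further replication and mitosis genes and histone genes. Genes of cycle entry and its brakes, such as cyclin D and CDK inhibitor genes, were not left out. Classes called X-like below passed a marker rule, and clusters that did not pass keep their number. 

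Among the classes and unnamed clusters of takinib the members were most abundant in blood cell precursors, of which vehicle had few cells. Erythroid-like cells, led by the globins and Car1, held 3835 CPM of the 24 mitosis members and 2529 CPM of the 17 S-phase members in takinib (498 cells; vehicle had 2). Cluster 11, led by the neutrophil precursor genes Camp, Ngp, Elane and Mpo, held 2471 CPM and 1003 CPM (641 takinib cells; vehicle had 14). These 1139 cells made up 4.52% of the takinib cells and carried 40.4% of the takinib mitosis UMIs and 36.2% of its S-phase UMIs. In vehicle the mitosis UMIs came mostly from macrophage-like (43.8%), epithelial-like (25.9%) and cluster 4 cells (11.1%), the last an unnamed cluster with epithelial and acinar markers led by Reg3b and Reg1. The S-phase level of vehicle B-like cells, 1091 CPM, was above that of takinib cluster 11.

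Over all kept cells the mitosis members summed to 472 CPM under vehicle against 569 CPM under takinib, a log2 ratio of 0.27 [0.25, 0.29]. Without erythroid-like cells and cluster 11, a setting added after seeing the data, it turned to -0.36. The S-phase members summed to 381 and 344 CPM, -0.15 [-0.17, -0.12]. The median gene of the comparison stood at -0.318, so that relative to it the S-phase sum was higher in takinib, at 0.17. For these reasons the libraries are compared below within classes.

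**Figure D2:**
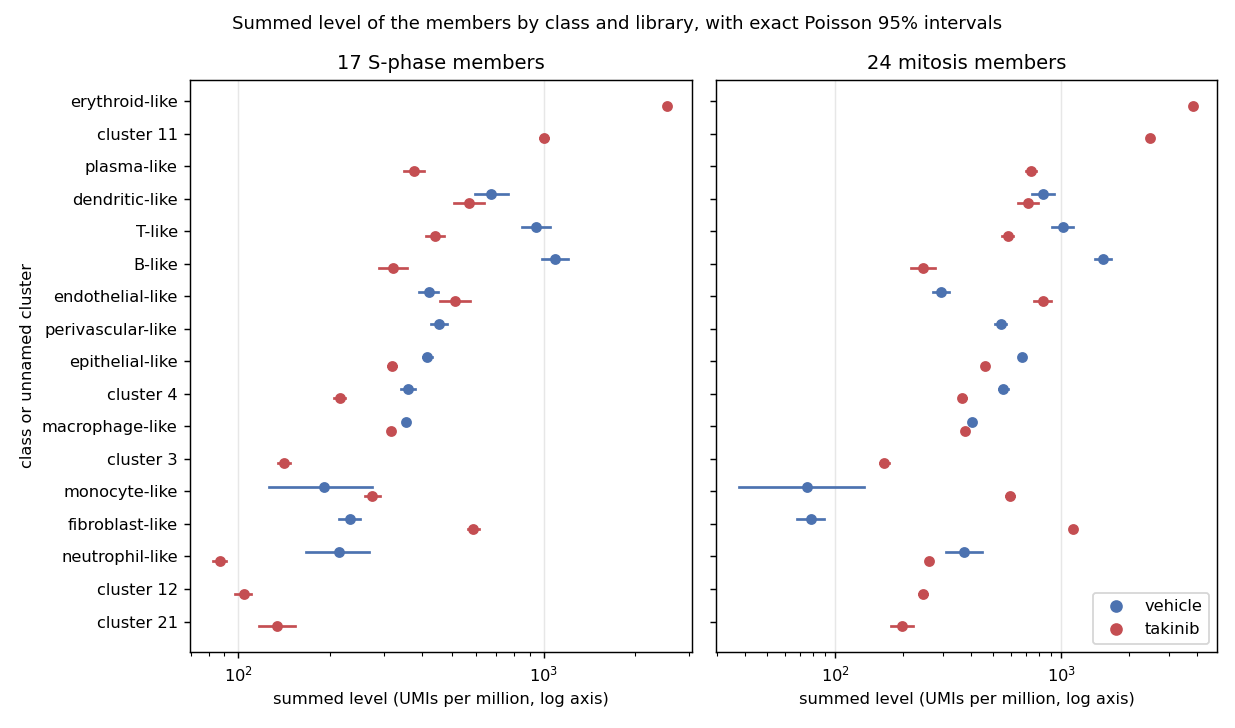
Summed level of the 17 S-phase members (left) and 24 mitosis members (right) in CPM on a log axis, by class or unnamed cluster, with exact Poisson 95% intervals; classes with fewer than 60 cells in a library lack that point. Erythroid-like cells and cluster 11 stand highest in takinib, and in the mitosis panel fibroblast-like cells differ most between the libraries among the classes compared.

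To set cells of different depth on one scale, each was thinned to 1000 UMIs, and a cell was counted as positive with at least 2 UMIs of the mitosis members. In takinib 48.2% of erythroid-like cells [43.7, 52.7] and 31.2% of cluster 11 cells [27.6, 34.9] were positive, and these intervals do not overlap. Plasma-like cells followed with 11.9% [7.80, 17.2], fibroblast-like cells with 9.15% [6.17, 13] and dendritic-like cells with 8.70% [4.25, 15.4], whose intervals overlap one another. Epithelial-like (4.77%), macrophage-like (4.54%), monocyte-like (4.35%), neutrophil-like (4.07%), T-like (3.22%) and B-like cells (2.87%) came next among classes of at least 100 cells. In vehicle dendritic-like (13.1% [7.81, 20.1]) and B-like cells (12.7% [8.45, 18]) stood highest among classes of at least 100 cells. T-like (7.24%), neutrophil-like (7.20%), epithelial-like (6.82%), perivascular-like (4.92%), macrophage-like (4.62%) and endothelial-like cells (3.13%) followed, and fibroblast-like cells stood lowest with 0.776% [0.253, 1.80]. Mature neutrophils do not divide and were read as background. Plasma-like cells had been planned for this too and were not used, with 11.9% positive in takinib. With Cks2 the neutrophil-like shares, 7.20% and 4.07%, were near those of epithelial-like cells, 6.82% and 4.77%. The shares listed above therefore cannot be read against the background that follows, which leaves Cks2 out. Without Cks2, which is described further below, 0.379% of the neutrophil-like cells of vehicle and 0.953% of those of takinib were positive, at median depths of 1209.5 and 2042 UMIs before thinning. The vehicle fibroblast-like share without Cks2, 0.621%, lay between these values, and the takinib share without it was 9.15%.

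**Figure D3:**
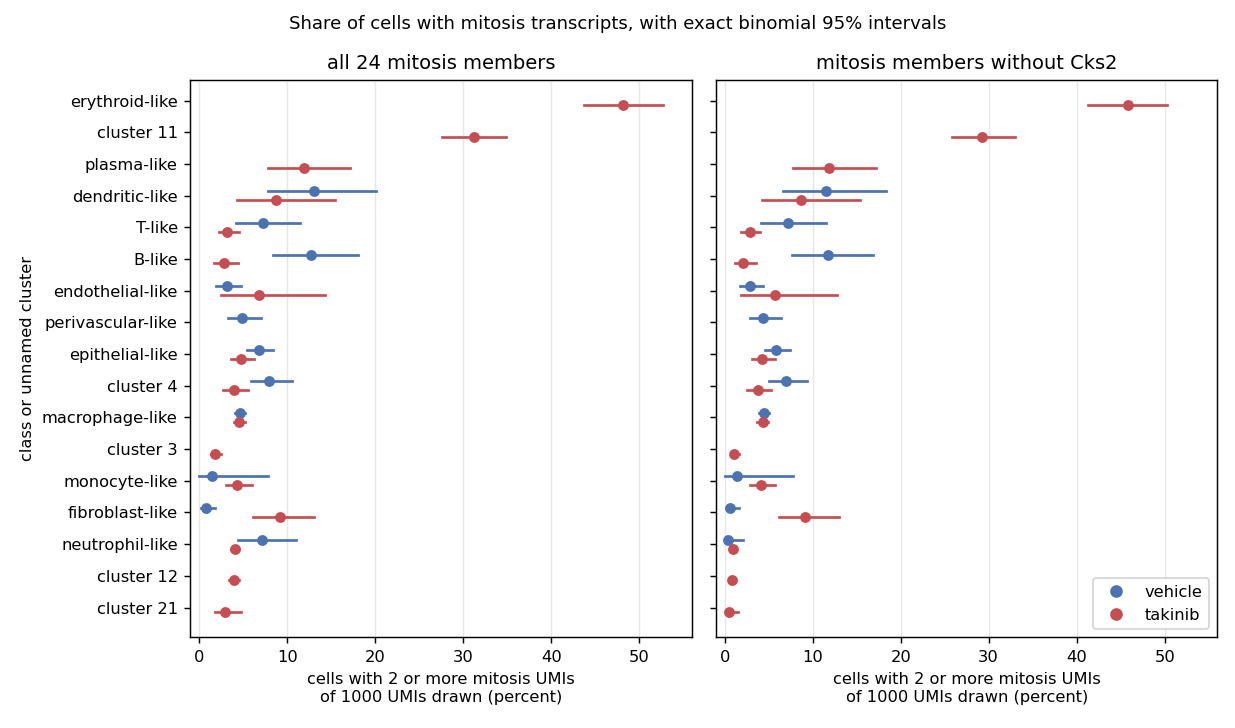
Percent of cells with at least 2 mitosis UMIs of 1000 UMIs drawn, by class and library, with exact binomial 95% intervals, for all 24 mitosis members (left) and without Cks2 (right). Neutrophil-like cells and cluster 12 drop to about 1% or less on the right, while the other named classes stay close to their values on the left.

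Fibroblast-like cells, which carry Dcn, Col1a1 and Col3a1, had the largest difference in the mitosis members between the libraries among the classes compared. Their mitosis members summed to 78.1 CPM under vehicle (211 UMIs in 644 cells) against 1129 CPM under takinib (3928 UMIs in 306 cells), 14.5-fold higher, a log2 ratio of 3.85 [3.65, 4.06]. The S-phase members summed to 232 and 589 CPM, 1.35 [1.22, 1.48]. Positive cells were 5 of 644 in vehicle and 28 of 306 in takinib. The takinib UMIs were concentrated, with 50% of the mitosis UMIs in 8 cells, so the Poisson intervals are too narrow as a measure of spread over cells. With cells thinned, so that deep cells count no more than shallow ones, the log2 ratio of the mitosis sum was 2.61.

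Among mitosis members in fibroblast-like cells, Hmmr, a spindle protein, stood at 0.740 CPM under vehicle against 44.3 CPM under takinib, 5.90 [4.02, 8.96] on the log2 scale. Cyclin B1, Ccnb1, went from 0.740 to 34.8 CPM, 5.55 [3.67, 8.62], and the anaphase activator Cdc20 from 1.48 to 48.3 CPM, 5.03 [3.64, 6.92]. Ube2c, its ubiquitin-conjugating enzyme, had 4.44 CPM under vehicle against 142 CPM under takinib. These vehicle values rest on 2, 2, 4 and 12 UMIs. The smallest ratios among mitosis members that passed were those of the motor Kif11 (2.96 to 19.5 CPM, 2.72), Nusap1 (1.85 to 14.4 CPM, 2.96) and Cdk1 (8.51 to 71.0 CPM, 3.06). The checkpoint kinase Bub1 had 0 UMIs in vehicle and 37 in takinib, at least 9.57-fold higher against a floor of 3 UMIs in vehicle. Mki67 stood at 7.40 and 76.7 CPM and Top2a at 7.77 and 69.3 CPM. All 24 mitosis members were higher in takinib.

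The S-phase members of fibroblast-like cells were more mixed. Thymidine kinase, Tk1, stood at 2.22 CPM under vehicle against 38.2 CPM under takinib, 4.11 [2.94, 5.58], and the clamp-binding Pclaf at 5.18 and 64.9 CPM, 3.65 [2.87, 4.54]. Thymidylate synthase, Tyms, went from 11.1 to 86.2 CPM, 2.96 [2.41, 3.55]. In contrast Pcna had 51.1 and 62.4 CPM, 0.29 [-0.03, 0.61], the large ribonucleotide reductase subunit Rrm1 65.9 and 93.4 CPM, 0.50 [0.24, 0.78], and the helicase subunit Mcm4 19.6 and 30.5 CPM, 0.63 [0.15, 1.14]. Mcm6 stood at 23.7 and 36.8 CPM, 0.63 [0.19, 1.09]. Stmn1 stood at 21.5 and 57.8 CPM.

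Counted over the list, 35 of the 42 members had at least 50 UMIs in a fibroblast-like library, 30 of them in takinib alone, and 30 were at least 2-fold higher and 0 at least 2-fold lower in takinib. Of all 7992 genes with that count, 7.38% were at least 2-fold higher and 11.5% at least 2-fold lower. Members that reached 50 UMIs in takinib alone had to be high there, so the split over all 42 is also given: 42 were higher in takinib and 0 lower, by any size. Mcm2, Mcm5, Ccne1, Ccne2, Cdc6, Bub1 and Bub1b were the members under 50 UMIs in both libraries. The median gene stood at -0.105, which leaves the mitosis ratio at 3.96.

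**Figure D4:**
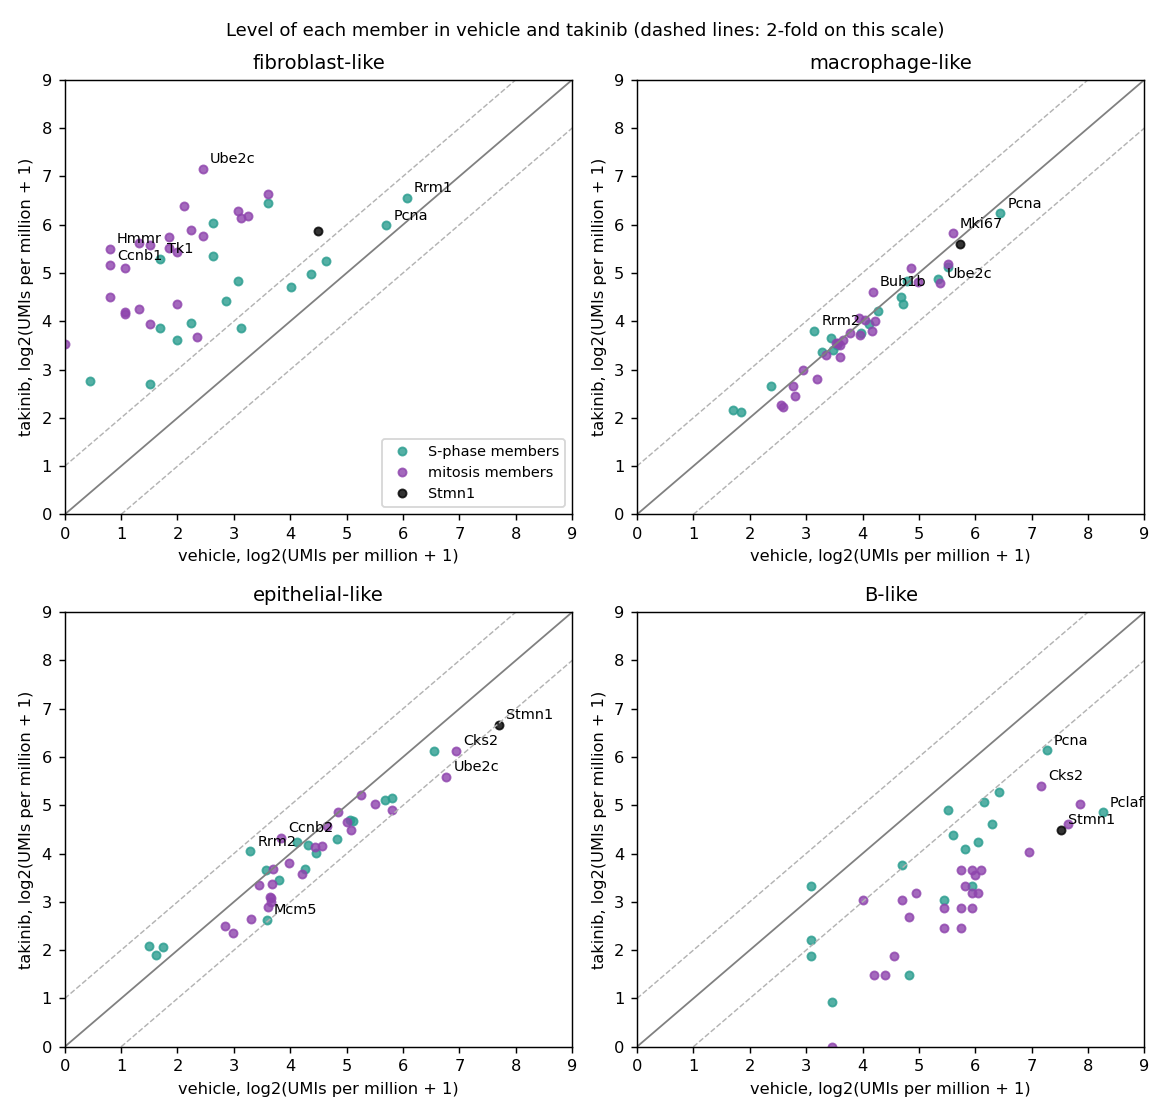
Each member's level in vehicle (x axis) and takinib (y axis), as log2(CPM + 1), in 4 classes; the solid line marks equal levels. Fibroblast-like members lie above the line and most B-like members below it, epithelial-like members lie mainly a little below, and macrophage-like members lie along it.

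The 28 positive takinib fibroblast-like cells were deep, with a median of 23265 UMIs against 7640.5 in the other 278. Of them 28 held Col1a1, 27 held Dcn, and 20 held Pdgfra. The 10 fibroblast markers summed to 14516 CPM in them and 25387 CPM in the others. Lum, a matrix proteoglycan, stood at 51.5 and 329 CPM. Wt1, a factor of mesothelial and stellate cells, was detected in 26 of 28 and in 148 of the other 278 cells, which were shallower, at 108 and 123 CPM. The 5 mesothelial markers summed to 506 and 371 CPM. The 10 epithelial markers summed to 726 and 215 CPM with medians over cells of 19.8 and 0, and Epcam, a defining one, was found in 2 of 28 cells, at 4.55 and 7.09 CPM. The keratins Krt8 (165 and 52.8 CPM, 7 of 28 cells) and Krt18 (132 and 45.0 CPM, 7 of 28 cells) were higher in the positive cells. The part of epithelial RNA in these cells was not tested. Neutrophil markers (9 genes) totalled 6864 and 10051 CPM in positive and other cells. Macrophage markers (12 genes) totalled 926 and 1266 CPM. The part of doublets in these deep cells was not tested beyond the removal by score; with no doublets removed the mitosis log2 ratio was 3.24. Cdkn2a, which encodes the cell cycle inhibitor p16, was at 9.09 CPM in the positive cells and 90.1 CPM in the others, found in 4 of 28 and 59 of 278 cells. The value of these positive cells rests on 6 UMIs. That difference was not seen in every class and library. In vehicle fibroblast-like cells the 5 positive cells held 210 CPM, from 5 UMIs, and the others 205 CPM. Epithelial-like cells had 725 and 639 CPM in takinib. In vehicle they had 568 and 1044 CPM, the same direction as takinib fibroblast-like cells.

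Against vehicle cells of female origin alone the mitosis log2 ratio in fibroblast-like cells was 3.57, with 0 of 130 such cells positive (0% [0, 2.80]). Against those of male origin it was 4.21. The direction was therefore the same against cells of either sex.

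B-like cells, which carry Cd79a and Ms4a1, went the other way. Their mitosis members summed to 1536 CPM under vehicle (205 cells) against 245 CPM under takinib (663 cells), 6.27-fold lower, -2.65 [-2.86, -2.44]. The S-phase members summed to 1091 and 321 CPM, -1.77 [-1.97, -1.56]. Positive cells were 26 of 205 in vehicle and 19 of 663 in takinib. In vehicle 50% of the mitosis UMIs lay in 7 cells. Pclaf stood at 305 CPM under vehicle against 27.9 CPM under takinib, -3.45 [-4.07, -2.87], and Pcna at 153 and 69.3 CPM, -1.14 [-1.64, -0.63]. Top2a went from 200 to 23.4 CPM, -3.10 [-3.79, -2.44], Mki67 from 230 to 31.5 CPM, -2.87 [-3.47, -2.29], and Cks2 from 143 to 41.4 CPM, -1.78 [-2.38, -1.20]. Stmn1 had 183 and 21.6 CPM. These 6 were the members with at least 50 UMIs in a B-like library, 5 of them in vehicle alone, and 6 were at least 2-fold lower. Of all 2980 genes with that count, 1.81% were at least 2-fold lower and 7.15% at least 2-fold higher. By any size 41 of the 42 members were lower in takinib and Ccne1 (7.51 and 9.0 CPM, from 3 and 10 UMIs) was higher.

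T-like cells had the same direction with a smaller difference. The mitosis members summed to 1014 CPM under vehicle (221 cells) against 580 CPM under takinib (1026 cells), -0.81 [-0.98, -0.63], and the S-phase members to 945 and 441 CPM, -1.10 [-1.28, -0.92]. Positive cells were 16 of 221 (7.24% [4.19, 11.5]) and 33 of 1026 (3.22% [2.22, 4.49]), intervals that overlap slightly. Among the S-phase members with at least 50 UMIs in a T-like library the helicase subunit Mcm6 (89.4 and 36.3 CPM, -1.30), Rrm1 (86.6 and 36.3 CPM, -1.26) and Mcm7 (69.9 and 30.7 CPM, -1.19) had the lowest ratios. Mcm4 (-0.81), Pcna (-0.85) and Pclaf (-0.99) had the highest. Among the mitosis members with that count Top2a (143 and 57.7 CPM, -1.31) stood lowest, then Ube2c at -1.10 and the passenger protein Birc5 at -0.90. Kif23, the midbody motor, was higher in takinib with 14.0 and 23.7 CPM, 0.76 [-0.55, 2.45], an interval that includes 0; Cks2 stood at -0.20 and Cenpf at -0.42. Of the 42 members 15 had at least 50 UMIs in a T-like library, 12 of them in takinib alone. Of the 15, 6 were at least 2-fold lower and 0 at least 2-fold higher. The background was 3.06% lower and 9.19% higher among 5138 genes. By any size 38 of the 42 members were lower in takinib and 4 higher. Against the 19 vehicle T-like cells of female origin, which held 11 mitosis UMIs, the mitosis log2 ratio reversed to 0.53 [-0.32, 1.53]. Against the 46 of male origin it was -1.94, and with cells of at most 10% mitochondrial UMIs it was -1.84.

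Epithelial-like cells, the lineage from which this carcinoma arises, with tumour and other epithelial cells not separated, had lower member levels in takinib, and the size of the difference depended on a small cluster. Their mitosis members summed to 672 CPM under vehicle (1158 cells) against 458 CPM under takinib (1070 cells), -0.55 [-0.61, -0.50], or -0.41 relative to the median gene, which stood at -0.146. The S-phase members summed to 416 and 318 CPM, -0.39 [-0.45, -0.32]. Positive cells were 79 of 1158 (6.82%) and 51 of 1070 (4.77%), a difference of -2.06 percentage points [-4.06, -0.05]. That difference turned to 0.81 when cells were thinned to 2000 UMIs in place of 1000 and to 0.05 when 1 UMI was enough, so it depends on the cut. Cluster 6, led by the goblet cell genes Spink4, Muc2 and Zg16, held 2339 CPM of mitosis members in vehicle (90 cells) and 509 CPM in takinib (82 cells), with 37.8% and 9.76% positive. Its cells were not alike in the libraries. Finer clustering put 90 of the vehicle cells and 9 of the takinib cells in a cluster led by the goblet genes, and 0 and 71 in one led by S100g, Muc6 and Gkn3. The 9 takinib goblet cells held 4 mitosis UMIs, so the values of cluster 6 compare different cells. Without cluster 6 the log2 ratio of the class was -0.21 for the mitosis members and -0.26 for the S-phase members. Cluster 5, led by Cdkn2a, Krt7 and Msln, held 554 and 467 CPM, with 4.55% and 5.08% positive, and it also joined different cells. Finer clustering put 764 of its vehicle and 151 of its takinib cells in a cluster led by Cdkn2a and Tnc, and 22 and 567 in one led by Wfdc2, Krt18 and Krt7. Within the first the mitosis members stood at 531 CPM under vehicle and 513 CPM under takinib, with 34 and 9 cells positive. This split was read after seeing the data. Clusters 18 (277 vehicle and 43 takinib cells) and 23 (0 and 216) held the remainder, so the class was not made up alike in both libraries.

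The ratio of epithelial-like cells depended on which vehicle cells were chosen by their sex-linked UMIs. Vehicle cells with neither Xist nor Y-linked UMIs, or with both, were in neither group below. Vehicle cells of female origin held 144 mitosis UMIs in 130 cells, with 4 positive. Those of male origin held 3790 in 570 cells, with 47 positive. Takinib held no Y-linked UMI, and against female-origin vehicle cells the mitosis log2 ratio was 1.53 [1.29, 1.78] and the S-phase ratio 0.10, both reversed. Against male-origin cells they were -0.87 and -0.42. The direction in epithelial-like cells therefore differed with the vehicle cells chosen, and cells of a sex need not come from 1 animal.

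Of the 42 members 39 had at least 50 UMIs in an epithelial-like library (not Ccne1, Ccne2 and Cdc6), and 3 were at least 2-fold lower and 0 at least 2-fold higher. Among all 11427 genes with that count 8.14% were at least 2-fold lower and 7.94% at least 2-fold higher, so the share of members past 2-fold lower was close to the background and none was past 2-fold higher. The 3 were Ube2c (108 CPM in vehicle and 47.1 in takinib, -1.20 [-1.36, -1.04]), the helicase subunit Mcm5 (11 and 5.18 CPM, -1.08 [-1.59, -0.59]) and Stmn1 (207 and 101 CPM, -1.03 [-1.14, -0.92]). Relative to the median gene 1 was past 2-fold. Top2a (55.2 and 28.8 CPM, -0.94) and Cks2 (122 and 68.9 CPM, -0.83) were next among mitosis members, and Mcm6 (55.2 and 34.7 CPM, -0.67) and Mcm3 (18.1 and 11.9 CPM, -0.60) among S-phase members. Rrm2, the regulated subunit of ribonucleotide reductase, was higher in takinib with 8.76 and 15.5 CPM, 0.83 [0.41, 1.26], and so was cyclin B2, Ccnb2, with 13.2 and 19.1 CPM, 0.53 [0.18, 0.88]. Tk1 (0.13), Gins2 (0.09), Birc5 (0.01) and Cdc20 (-0.01) had intervals that include 0.

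Cluster 4, which shares epithelial and acinar markers, had lower levels as well. Its mitosis members summed to 555 CPM under vehicle (588 cells) against 365 CPM under takinib (801 cells), -0.60 [-0.68, -0.53], and its S-phase members to 360 and 215 CPM, -0.74 [-0.84, -0.65]. Positive cells were 47 of 588 and 32 of 801. Of the 42 members 34 had at least 50 UMIs in a library, 6 of them in takinib alone and 1 in vehicle alone. Of the 34, 8 were at least 2-fold lower and 0 at least 2-fold higher, against 2.99% lower and 6.04% higher among 10352 genes. Mcm5 (12.6 and 4.40 CPM, -1.52), Stmn1 (139 and 49.2 CPM, -1.50), Mcm6 (51.3 and 20.5 CPM, -1.33) and Mcm2 (-1.18) were lowest among these 34. Mcm5 was the 1 member that passed in vehicle alone and so had to be high there. Prc1, which bundles the central spindle, stood at 21.7 and 9.89 CPM, -1.14, and Plk1 at 13.2 and 6.40 CPM, -1.04.

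Macrophage-like cells held the most mitosis UMIs of the vehicle library and differed little between libraries. Their mitosis members summed to 402 CPM under vehicle (4952 cells) against 376 CPM under takinib (4226 cells), -0.10 [-0.14, -0.06]. The S-phase members summed to 353 and 316 CPM, -0.16 [-0.20, -0.12]. Positive cells were 229 of 4952 (4.62%) and 192 of 4226 (4.54%), a difference of -0.08 percentage points [-0.95, 0.80]. All 42 members had at least 50 UMIs in a library, 1 of them in takinib alone. Of these, 0 were past 2-fold in either direction, against 5.87% higher and 5.12% lower among 11532 genes. By any size 13 were higher and 29 lower in takinib. The mitosis ratio turned to 0.07 with finer clustering, and the S-phase ratio to 0.18 against vehicle cells of female origin, so neither direction held under every setting. Finer clustering also left a cluster led by Lpl, Atp6v0d2 and Mmp12 (620 vehicle and 1333 takinib cells) unnamed and outside the class.

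Single members of the macrophage-like cells differed in direction. Rrm2 stood at 7.83 CPM under vehicle against 13 CPM under takinib, 0.73 [0.47, 1.00], the cyclin E gene Ccne2 at 2.27 and 3.47 CPM, 0.61 [0.11, 1.13], and Cdc6 at 2.59 and 3.34 CPM, 0.36 [-0.12, 0.86]. The checkpoint kinase Bub1b had 17.1 and 23.4 CPM, 0.45 [0.26, 0.63], Cks2 28.1 and 33.3 CPM, 0.24, and Mki67 47.6 and 55.8 CPM, 0.23 [0.12, 0.34]. Lower in takinib were Ube2c with 40.4 and 26.7 CPM, -0.60 [-0.74, -0.46], Mcm3 with 39.4 and 28.3 CPM, -0.47 [-0.61, -0.34], and Hmmr with 8.15 and 5.97 CPM, -0.45. Aurka (-0.44), Pclaf (-0.39) and Mcm4 (-0.39) were near them. Rrm2 was higher and Ube2c lower in takinib in both macrophage-like and epithelial-like cells.

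The macrophage-like class was filled by different clusters in the 2 libraries. Cluster 2, led by MHC class II genes, held 2520 vehicle and 277 takinib cells, and cluster 9, led by H2-M2 and Marco, held 8 and 1110. In cluster 1, led by the alveolar macrophage genes Chil3, Ear2 and Car4, the mitosis members stood at 652 CPM under vehicle against 423 CPM under takinib, -0.63 [-0.69, -0.56], with 9.89% and 5.22% positive. In cluster 2 they stood at 314 and 378 CPM, 0.27 [0.14, 0.39], and in cluster 0, led by C1q genes, at 396 and 375 CPM. The near equality of the class thus joins opposite differences in its clusters. With unnamed cluster 3 (Saa3, F13a1 and Arg1; 9 vehicle and 2294 takinib cells) counted in, the mitosis log2 ratio was -0.39.

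Neutrophil-like cells showed a member that did not follow its group. Cks2, the small subunit of Cdk1 kinase, stood at 242 CPM under vehicle (264 cells) against 152 CPM under takinib (6608 cells) and made up 65.1% and 58.0% of all mitosis UMIs of these cells. After thinning, a Cks2 UMI was found in 17.8% of the neutrophil-like cells of vehicle and 11.6% of those of takinib, against 2.24% and 2.32% of macrophage-like cells. Top2a was held by 0.758% and 0.984% of the neutrophil-like cells. In cluster 12, led by Ccl3, Lcn2 and Chil1, Cks2 made up 61.2% of the takinib mitosis UMIs. In takinib cells of cluster 21, with B and neutrophil markers, the mitosis members summed to 197 CPM with Cks2 and 89.2 CPM without it. Across the 25 points of a class in a library with at least 100 cells, Cks2 had the lowest correlation of the mitosis members with the sum of the others, Pearson r = 0.438, and Plk1 the highest, 0.958. These points share 2 libraries, so the values are descriptions.

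Without Cks2 the mitosis members of neutrophil-like cells summed to 130 CPM under vehicle against 110 CPM under takinib, -0.24 [-0.67, 0.22], an interval that includes 0, against 373 and 261 CPM with it. Nearly all vehicle cells of the class lay in cluster 10 (263 vehicle and 2701 takinib cells), while cluster 13 held 1 and 3907. Within cluster 10 the sums without Cks2 were 131 and 168 CPM, 0.36 [-0.08, 0.83]. Finer clustering split it again by library, with 259 vehicle and 992 takinib cells in one cluster and 4 and 1618 in another, so most takinib cells of the class had few or no vehicle cells beside them. The S-phase members of the class summed to 213 and 86.9 CPM, -1.29 [-1.63, -0.93]. Pcna stood at 85.7 and 33.5 CPM, -1.36, the helicase subunit Mcm2 at 17.7 and 2.79 CPM, -2.67, from 6 and 50 UMIs, and Mcm3 at 14.8 and 3.01 CPM, -2.30. Of the 42 members 24 had at least 50 UMIs, 23 of them in takinib alone, with 9 at least 2-fold lower and 0 higher beyond 2-fold. The background of these cells was 39.5% lower and 7.43% higher among 9010 genes, and the median gene stood at -0.729, so the share of lower members was close to the background.

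Kif23 and Pcna also departed from their groups in particular cells. Kif23 was held by 7.22% [4.47, 10.9] of vehicle cells of epithelial-like cluster 18, led by Onecut2 and Neat1, after thinning, while Top2a was held by 0.722% of them. Its level there was 93.0 CPM, against 37.0 CPM over vehicle epithelial-like cells and 10.6 CPM in vehicle macrophage-like cells. Pcna was present in every class and library plotted, with its lowest level among the classes, 33.5 CPM, in takinib neutrophil-like cells and its highest, 318 CPM, in takinib erythroid-like cells. Mki67 spanned 7.40 CPM in vehicle fibroblast-like cells to 651 CPM in takinib erythroid-like cells.

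**Figure D5:**
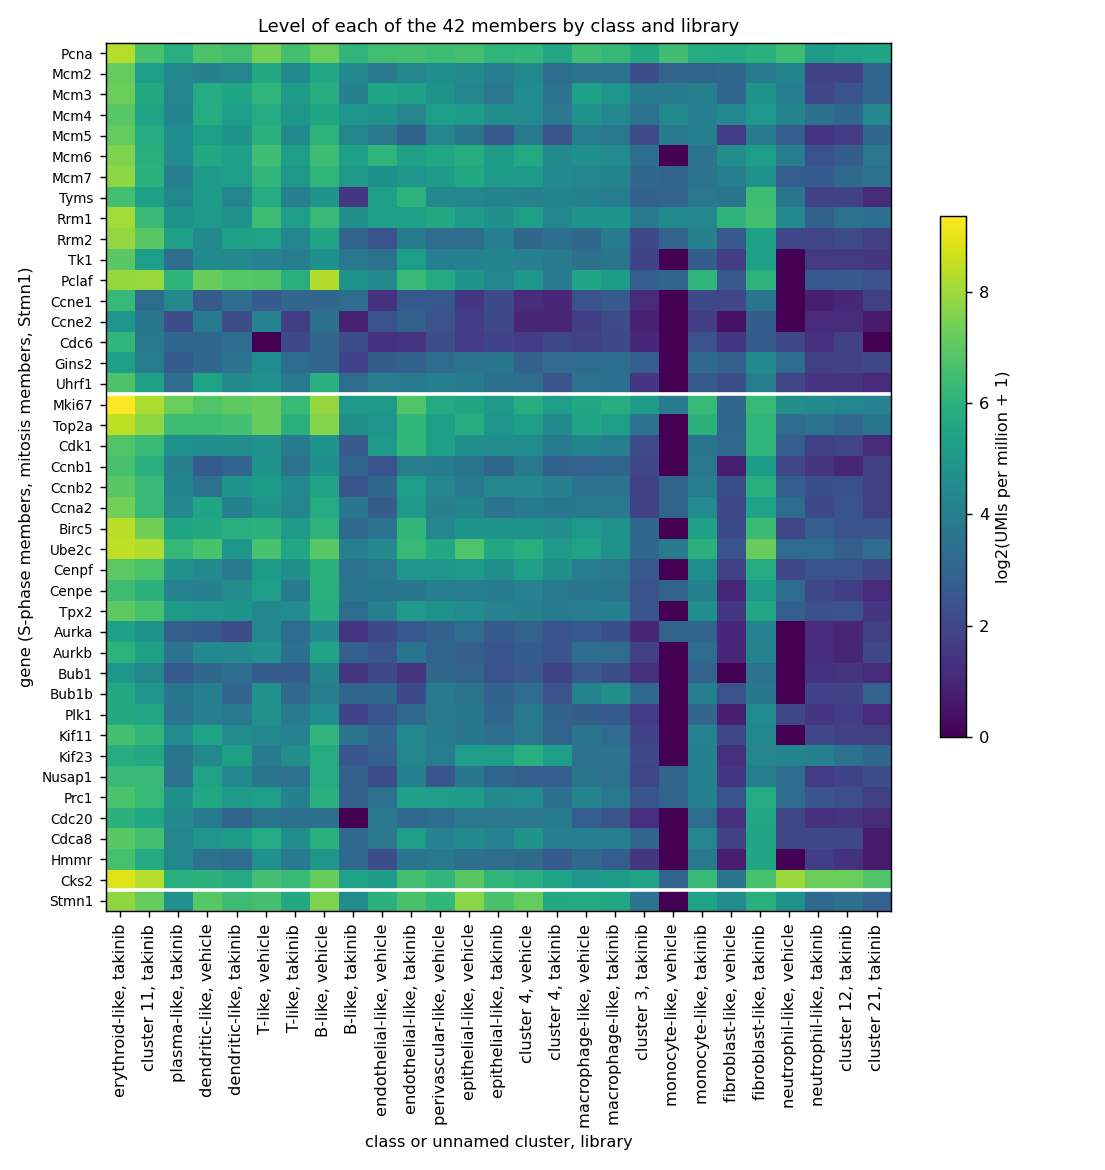
Level of each of the 42 members, as log2(CPM + 1), in every class or unnamed cluster with at least 60 cells in a library; white lines part the S-phase members, the mitosis members and Stmn1. Columns of erythroid-like cells and cluster 11 are bright throughout, and the Cks2 row stays bright in neutrophil-like cells and cluster 12 where its group is dark.

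The balance of the groups differed between classes. Vehicle fibroblast-like cells held 2.97 S-phase UMIs per mitosis UMI, takinib fibroblast-like cells 0.522. The ratio was 0.877 and 0.840 in macrophage-like cells, 0.619 and 0.695 in epithelial-like cells, 0.659 in takinib erythroid-like cells and 0.406 in takinib cluster 11. In B-like cells it was 0.710 in vehicle and 1.31 in takinib.

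Classes with fewer than 100 cells in a library are given without comparison of single members. Monocyte-like cells had 74.8 CPM of mitosis members in vehicle (69 cells, 11 UMIs) and 592 CPM in takinib (804 cells). Endothelial-like cells had 295 CPM under vehicle (671 cells) against 828 CPM under takinib (88 cells, with 50% of the mitosis UMIs in 3 cells). Plasma-like cells had 906 CPM (37 cells) and 738 CPM (201 cells), and perivascular-like cells 541 CPM in vehicle (590 cells). Dendritic-like cells, with 130 and 115 cells, had 828 and 716 CPM, -0.21 [-0.43, 0.01]. There 4 members had at least 50 UMIs, and Mki67 (112 and 131 CPM), Top2a (86.2 and 92.9 CPM), Pcna (107 and 91.1 CPM) and Pclaf (144 and 120 CPM) had ratios with intervals that include 0.

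Other genes of the same processes were read from 4 further lists. Of 71 other mitosis genes 32 had at least 50 UMIs in a fibroblast-like library, and 27 were at least 2-fold higher and 0 at least 2-fold lower in takinib, against the 7.38% and 11.5% of all genes given above. Of the 32 genes 26 reached that count in takinib alone and so had to be high there. Ckap2l (0.370 and 23.3 CPM, from 1 and 81 UMIs) and the midbody motor Kif20a (0.740 and 25.9 CPM) stood highest, and Ckap5 (48.9 and 36.5 CPM) and securin, Pttg1 (41.5 and 49.4 CPM), lowest. Of 49 other replication genes 23 passed, 12 of them in takinib alone, and 9 were at least 2-fold higher, led by the checkpoint adaptor Clspn (0.740 and 14.9 CPM) and Gmnn (5.18 and 22.7 CPM), while the origin subunits Orc3 (17.4 and 16.7 CPM) and Orc2 (20.7 and 22.7 CPM) stood lowest. In macrophage-like cells 71 other mitosis genes passed with 1 at least 2-fold higher, the kinetochore gene Cenpu (1.53 and 3.27 CPM, 1.10), while Iqgap3 (14.6 and 8.98 CPM, -0.70) stood lowest. Cenpu was among the 13 of these 71 genes that reached 50 UMIs in takinib alone. There 48 replication genes passed with 0 past 2-fold, from the histone chaperone gene Chaf1b (4.82 and 7.78 CPM, 0.69) and Tipin (0.68) to the polymerase gene Pold1 (6.90 and 5.35 CPM, -0.37), which stood lowest. In epithelial-like cells 4 of 50 mitosis genes were at least 2-fold lower, a share near the 8.14% of all genes, among them Kifc1 (8.37 and 3.07 CPM) and the separase gene Espl1 (6.54 and 2.64 CPM). Of these 50 genes 3 reached 50 UMIs in vehicle alone and so had to be high there, and 10 in takinib alone. Against the same 8.14%, 2 of 43 replication genes were at least 2-fold lower, the helicase component Cdc45 (6.80 and 2.28 CPM) and Pola1 (13.5 and 6.68 CPM). Of these 43 genes 2 reached 50 UMIs in vehicle alone and 3 in takinib alone. The histone chaperone gene Asf1b (2.88 and 5.53 CPM, 0.94) and Rfc5 (0.58) stood highest among them, and Cdkn3 (0.57) and the lamin gene Lmnb1 (55.3 and 80.8 CPM, 0.55) among the mitosis genes.

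Genes that restrain the cycle were read in the same way. Of 16 brakes, CDK inhibitors and antiproliferative genes, 6 were at least 2-fold higher and 1 lower in macrophage-like cells, against 5.87% and 5.12% of all genes. Gadd45b, a stress-induced gene, stood at 17.5 CPM under vehicle against 91.0 CPM under takinib, 2.38 [2.23, 2.54], and the CDK inhibitor gene Cdkn1c at 0.695 and 2.33 CPM, 1.75. Cdkn1c was the 1 of these 16 brakes that passed in takinib alone and so had to be high in that library. Btg2, an antiproliferative gene, stood at 463 and 230 CPM, -1.01 [-1.06, -0.97], and Btg1 at 669 and 529 CPM. In epithelial-like cells 3 of 15 brakes were at least 2-fold higher and 0 lower, against 7.94% and 8.14% of all genes. Gadd45b had 20.8 and 121 CPM, 2.54 [2.30, 2.79], Cdkn1a, which encodes the CDK inhibitor p21, 89.6 and 279 CPM, 1.64 [1.52, 1.76], and Cdkn2a 996 and 644 CPM, -0.63, with its neighbour Cdkn2b at -0.62. In fibroblast-like cells the INK4 inhibitor genes Cdkn2b (109 and 23.3 CPM, -2.23 [-2.60, -1.87]) and Cdkn2a (205 and 74.7 CPM, -1.46 [-1.67, -1.24]) were lower. Cdkn2d (14.1 and 43.1 CPM, 1.62) and Gadd45b (30.4 and 69.8 CPM, 1.20) were higher there. Of the 14 brakes that passed in fibroblast-like cells, 2 did so in takinib alone. Cdkn2d was among these 2 and so had to be high in that library.

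Of 24 entry genes, cyclin D, CDK and E2F genes and their partners, 23 passed in macrophage-like cells with 0 past 2-fold. Cdk6 (32.1 and 51.5 CPM, 0.68) and E2f3 (7.27 and 11.3 CPM, 0.64) stood highest, and Ccnd1 (31.9 and 21.3 CPM, -0.58) and Cdk2 (17.4 and 12.6 CPM, -0.46) lowest. In epithelial-like cells 1 of 21 was at least 2-fold lower, against 8.14% of all genes. It was Myb, with 9.03 and 1.84 CPM. Myb was the 1 of these 21 genes that passed in vehicle alone and so had to be high in that library. In these epithelial-like cells Ccnd1 had 573 and 357 CPM, and Ccnd3 (55.6 and 73.2 CPM) and E2f4 (24.6 and 32.0 CPM) stood highest. In fibroblast-like cells Myc was higher with 20.4 and 43.1 CPM, 1.08, and Ccnd2 lower with 110 and 58.6 CPM, -0.91.

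Genes outside the lists with the most similar pattern over the 25 points were, for the mitosis sum, Spag5 (Pearson r = 0.924), Ska1 (0.902), Knstrn (0.899), Shcbp1 (0.894) and Brca2 (0.883). For the S-phase sum they included Atad5 (0.922), Dtl (0.911), Fancd2 (0.906) and Aunip (0.905). The correlations are across classes of 2 libraries on log2(CPM + 1) and are descriptions.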

How the data were processed

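Droplet single-cell RNA-seq counts of 1 vehicle and 1 takinib library of KPPC mouse pancreatic tumours were used. The deposited matrices hold raw UMI counts per gene and barcode that the authors made with Cell Ranger 4 (vehicle) and 6.1.1 (takinib), per the file headers. The submitters' processing notes name Cell Ranger 2.1.1, STAR 2.0.4b, featureCounts 1.45 and build mm10, with no role given. The vehicle matrix lists barcodes with 0 UMIs, whereas the takinib barcodes start at 500. The matrices hold 80850334 and 139292875 UMIs.

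Cells with at least 1000 UMIs, 500 genes and at most 20% mitochondrial UMIs were kept. Doublets were scored per library with Scrublet in scanpy 1.11.5, which marked 3.18% of vehicle and 0.00373% of takinib cells. Since a caller under 0.5% has not worked, the 6% of takinib cells with the highest scores were taken instead, so 314 vehicle and 1607 takinib cells were removed. Among vehicle cells the removed ones held more positive cells (8.28%) than the kept ones (5.24%), while in takinib the shares were 5.54% and 5.58%. Cells were scaled to 10000 UMIs and clustered on 2000 variable genes, using 30 principal components, 15 neighbours and Leiden resolution 1 (igraph 0.11.9). Left out of the variable genes were 266 cell cycle and other genes. The entry genes and brakes were not among them, so they could shape the classes in which they are compared. Clusters were named from 21 marker lists where at least 3 markers were found and no other list reached 0.75 of the best score. A cluster also stayed unnamed where another list held more of its 10 leading genes, as in cluster 3. The same held for shallow clusters with no marker of the best list among their leading genes.

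Counts were summed per class and library and given per 1000000 UMIs (CPM). Log2 ratios are takinib over vehicle, with exact 95% intervals (scipy 1.17.1) that cover counting error and not the spread between animals. Genes with at least 50 UMIs in a library of classes with at least 100 cells in both were counted as past 2-fold or not. No test or p-value was computed. Ratio scripts were tested on simulated data. Named genes were the top 3 and bottom 3 members of each group by ratio, others by their role, and the 2 highest and 2 lowest of each other list in macrophage-like and epithelial-like cells. Those of the other lists in fibroblast-like cells, and Kif23, Cks2 and Cdkn2a where singled out, were named after their values were seen. Some genes that the rule names are not reported here. The members, lists and rules were chosen with earlier results of these data known. Alternatives were another cell filter, no doublet removal, thinning, clustering with cell cycle genes or at resolution 2, 10 CPM added, centring on the median gene and vehicle cells of 1 sex.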

Additional observations from a re-analysis of the deposited data

Results flagged for a closer look

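The mitosis members differed in opposite directions in fibroblast-like and B-like cells. Their log2 ratio of takinib over vehicle was 3.85 in fibroblast-like cells and -2.65 in B-like cells. Each group had 1 library, and the difference between these ratios was not tested.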

How the results depend on the processing

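No paired analysis was possible because each group had 1 library. Of 119 alternatives of the results the text leads with, 62 stayed within the counting interval, 45 moved beyond it and 12 reversed; of 125 others the numbers were 77, 40 and 8. Over all cells the S-phase log2 ratio (-0.15) was -0.65 thinned to 1000 UMIs, -0.03 with at least 2000 UMIs and 1000 genes, -0.22 with at most 10% mitochondrial UMIs, -0.19 with no doublet removal, 0.17 with the median gene at 0, 0.18 against female and -0.23 against male vehicle cells. The mitosis ratio (0.27) was 0.06, 0.35, 0.14, 0.22, 0.59, 0.81 and -0.03 in the same order, and 0.17 without Cks2. Without erythroid-like cells and cluster 11 the ratios were -0.68 and -0.36.

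In macrophage-like cells the S-phase ratio (-0.16) was -0.26 thinned, -0.24 with at most 10% mitochondrial UMIs, -0.22 with no doublet removal, -0.09 at resolution 2, 0.18 against female and -0.22 against male cells, and -0.45 with cluster 3. The mitosis ratio (-0.10) was -0.14 in deeper cells, -0.21 at 10% mitochondrial, -0.20 with no doublet removal, 0.07 at resolution 2, -0.14 at the median gene, -0.14 against female and -0.29 against male cells, and -0.39 with cluster 3.

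In epithelial-like cells the S-phase ratio (-0.39) was -0.51 with no doublet removal, -0.24 at the median gene, 0.10 against female cells, -0.56 with cluster 4 and -0.26 without cluster 6. The mitosis ratio (-0.55) was -0.38 thinned, -0.64 at 10% mitochondrial, -0.65 with no doublet removal, -0.41 at the median gene, 1.53 against female and -0.87 against male cells, and -0.21 without cluster 6. The count of 3 members past 2-fold was 1 with 10 CPM added and 1 at the median gene. In fibroblast-like cells the mitosis ratio (3.85) was 2.61 thinned, 3.24 with no doublet removal, 3.57 against female and 4.21 against male cells.

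The difference in positive cells, in percentage points, was -1.01 against female cells and 8.85 with no thinning for macrophage-like cells. Epithelial-like cells had 1.69 against female cells, 0.05 with 1 UMI, 0.81 thinned to 2000 UMIs and 5.68 with no thinning, and in fibroblast-like cells 22.12 with no thinning. Takinib cells of these classes were deeper, so unthinned shares favour takinib. In T-like cells the mitosis ratio was 0.53 against female cells. In neutrophil-like cells it was 0.14 at 10% mitochondrial and 0.22 at the median gene, and the difference in positive cells was 3.52 in deeper cells, 4.05 at 10% mitochondrial, 3.88 with no doublet removal, 3.60 with no thinning and 0.57 without Cks2. The settings on male cells, Cks2, erythroid-like cells and clusters 3, 4, 6 and 11 were chosen after seeing the data. The cause of these changes was not tested.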
